A study of Rattus norvegicus with 20 samples.

Results

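Ifit2, Ifit3, Mx1, Mx2, Oas1a, Oasl, Rsad2 and Ifi44, 8 antiviral effector genes of the interferon response, were followed in rat blood before and after an overdose of acetaminophen (APAP). Every probe set whose platform annotation gives exactly 1 gene symbol equal to one of these names was taken, which gave 10 probe sets (2 each for Ifit2 and Mx2) of the 20826 probe sets with 1 symbol, or 8 of 14217 genes. The rule itself uses no measured value. All 10 probe sets passed the filter on low signals in every comparison.

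Interferons are signalling proteins that cells release when they sense viral nucleic acid or tissue damage. They bind receptors that act through Janus kinases, and the STAT and IRF factors then switch on a large set of interferon-stimulated genes in nearly every nucleated cell, leukocytes included. The effectors described here block different steps of virus replication: the IFIT proteins bind foreign RNA and hold back its translation, the OAS enzymes sense RNA helices and switch on RNase L, the Mx proteins are dynamin-like GTPases that trap viral particles, and Rsad2 encodes viperin, an enzyme whose product ends viral RNA chains. Because many of them respond strongly to small amounts of interferon, their transcripts in blood are widely used as a readout of interferon activity.

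Male Wistar rats, an outbred strain, gave the blood, and its RNA was hybridized to 20 arrays, 5 in each of 4 groups. From 35 rats given 1200 mg/kg APAP by mouth, after a fast of 12 h and with a further 2 h without food, the 5 with the highest serum alanine transaminase 24 h later formed the susceptible sub-group and the 5 with the lowest the resistant sub-group. The groups are named R and RA for resistant rats before and after APAP, and S and SA for susceptible rats before and after it. Predose blood was drawn 1 week before dosing and postdose blood 24 h after it, both under anaesthesia, and the red cells were lysed. The labels give the retro-orbital plexus as the site for both, whereas the methods give the inferior vena cava for the postdose blood. No array holds blood of rats that received vehicle, so that APAP, fasting, the day and perhaps the site of bleeding cannot be told apart in any change from predose to postdose. Although 10 rats gave blood at both times, no label ties a postdose replicate number to the predose array of that rat, and the tests took all 20 arrays as independent. Since the sub-groups were formed from an outcome measured after dosing, they are the ends of a range and not treatments.

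On these arrays a gene is read by a probe set, several oligonucleotides whose brightness is combined into 1 signal. Signals were scaled to a median of 1000 on each array and are given here as log2 values, so that a difference of 1 is a doubling. Levels of different probe sets cannot be set against each other. Probe sets for bacterial trp genes, which rat RNA should not light up, served as negative controls and had medians per array of 3.69 to 7.72. By group these medians were 4.94 to 6.05 (R), 4.18 to 7.72 (RA), 3.69 to 6.53 (S) and 6.11 to 7.33 (SA), so that the background was not equal in all groups. The highest single value of a negative control was 8.12. All 5 general leukocyte markers lay above that level, as blood after red cell lysis should show, with a summed signal of 511000 to 702000 per array. Arrays correlated with each other at 0.92 to 0.94 over all probe sets. No array stood apart in its median as deposited (187 to 223) or in the ratio of 3' to 5' actin signal (0.66 to 0.95 in log2). In whole blood, fewer cells of a type and less RNA per cell cannot be told apart.

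The stretches of 250 bases before the transcription start are shown for the 6 genes with an entry in the RefSeq promoter table (Ifit3, Mx1, Oas1a, Oasl, Rsad2 and Ifi44), because most of the 8 genes varied together across arrays while Rsad2 did not. They are on build GRCr8, at chr1:241527076-241527325 on the plus strand for Ifit3, chr11:50294607-50294856 on the minus strand for Mx1, chr12:41330216-41330465 on the plus strand for Oas1a, chr12:47356293-47356542 on the minus strand for Oasl, chr6:48788121-48788370 on the minus strand for Rsad2 and chr2:243303841-243304090 on the minus strand for Ifi44. Each is written 5′ to 3′ in the direction of the gene, and capitals mark the core of the interferon-stimulated response element (GAAA, any 2 bases, GAAA) on either strand.
Ifit3: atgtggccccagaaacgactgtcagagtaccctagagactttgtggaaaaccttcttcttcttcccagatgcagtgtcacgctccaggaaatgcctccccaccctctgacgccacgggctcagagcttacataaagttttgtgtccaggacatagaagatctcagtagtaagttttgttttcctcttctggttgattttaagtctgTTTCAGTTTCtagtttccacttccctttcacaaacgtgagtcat
Mx1: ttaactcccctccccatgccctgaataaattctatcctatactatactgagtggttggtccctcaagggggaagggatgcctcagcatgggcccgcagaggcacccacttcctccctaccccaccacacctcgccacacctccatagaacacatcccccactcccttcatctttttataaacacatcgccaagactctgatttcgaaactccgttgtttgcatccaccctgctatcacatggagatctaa
Oas1a: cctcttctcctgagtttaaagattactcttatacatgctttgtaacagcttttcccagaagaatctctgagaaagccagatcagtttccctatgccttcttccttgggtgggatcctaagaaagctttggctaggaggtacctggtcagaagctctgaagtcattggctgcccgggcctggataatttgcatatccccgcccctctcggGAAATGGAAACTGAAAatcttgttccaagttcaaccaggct
Oasl: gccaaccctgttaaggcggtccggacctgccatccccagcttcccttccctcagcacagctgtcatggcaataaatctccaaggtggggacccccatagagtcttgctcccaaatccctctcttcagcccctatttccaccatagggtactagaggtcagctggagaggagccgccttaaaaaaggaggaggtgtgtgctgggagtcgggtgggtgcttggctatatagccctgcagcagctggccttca
Rsad2: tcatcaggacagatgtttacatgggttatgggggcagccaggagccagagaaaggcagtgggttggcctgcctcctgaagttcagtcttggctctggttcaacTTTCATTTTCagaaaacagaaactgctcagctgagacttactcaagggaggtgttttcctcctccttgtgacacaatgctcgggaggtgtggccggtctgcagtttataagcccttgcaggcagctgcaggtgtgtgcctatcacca
Ifi44: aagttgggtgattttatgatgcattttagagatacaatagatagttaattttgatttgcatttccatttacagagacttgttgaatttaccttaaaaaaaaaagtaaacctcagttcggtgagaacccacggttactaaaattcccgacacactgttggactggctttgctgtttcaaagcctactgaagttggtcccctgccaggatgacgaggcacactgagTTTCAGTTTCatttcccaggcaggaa
This core was found in 4 of these 6 stretches (Ifit3, Oas1a, Rsad2 and Ifi44), against 3.41% of 33469 promoter entries of the same length. Its presence did not follow the split between Rsad2 and the other genes, since Rsad2 held it while Mx1 and Oasl did not. Oas1a held 2 matches on the strand of the gene, which overlap each other, at 41 to 32 and 35 to 26 bases before the start. The match of Ifit3 lay 44 to 35 bases before the start, that of Ifi44 26 to 17 and that of Rsad2 147 to 138, all on the opposite strand. A second motif, TTCNNNGAA, to which STAT dimers bind, was searched on both strands in the same stretches and found in Oas1a alone (199 to 191 bases before the start), against 7.67% of all entries. It shared no base with the other matches. These matches are descriptions of the letters, not of occupied sites. In the same annotation Ifit2 and Ifit3 are neighbours on chromosome 1, Mx1 and Mx2 lie on chromosome 11 with Fam3b between them, and Rsad2 lies next to Cmpk2 on chromosome 6.

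The first question of the study was whether susceptible and resistant rats differ before they receive the drug. For the antiviral effectors no difference was detected, and rats of the same sub-group differed from each other by more than the sub-groups did. The log2 difference, S minus R, was between -0.49 and 0.14 over the 10 probe sets and below 0 for 9 of them (54.5% of all probe sets tested were below 0), with a median of -0.27 against -0.02 over all 30416 probe sets. The limma test, with p adjusted by Benjamini and Hochberg's method and a threshold of 0.05, called 0 of 10 (0.00329% of all probe sets in either direction), and none had an unadjusted p under 0.05 (1.66% higher and 2.08% lower over all). In no probe set were the groups free of overlap (0.243% higher and 0.286% lower over all).

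The spread among predose rats was large for most of these genes. Leaving out Rsad2 and the low Mx2 probe set, which were set aside after their values had been seen because they did not vary with the others, the other 8 probe sets had a median SD of 0.90 on R and 0.81 on S arrays. The median SD of the 15257 probe sets above the array median was 0.20 and 0.21 in those groups, and its 95th percentile 0.47 and 0.50. All 8 lay above that percentile in both groups. Over all 10 probe sets the median SD was 0.80 on R and 0.73 on S arrays, and that of Rsad2 alone was 0.19 and 0.29. The same rats were high or low in the 8 probe sets, which is partly given by keeping those that varied together. R replicate 2 ranked 9 or 10 of the 10 predose arrays in each of the 8. R replicate 5 ranked 1 to 3, S replicate 4 ranked 1 or 2 and S replicate 3 ranked 2 or 3. S replicate 1 ranked 7 to 9 and S replicate 5 anywhere from 4 to 10. Averaged over the 8 probe sets, the log2 signal was 14.66, 16.17, 15.50, 15.64 and 13.87 on R arrays 1 to 5 and 15.81, 15.14, 14.17, 13.78 and 15.30 on S arrays. Each sub-group thus held both high and low rats before dosing.

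**Figure D1:**
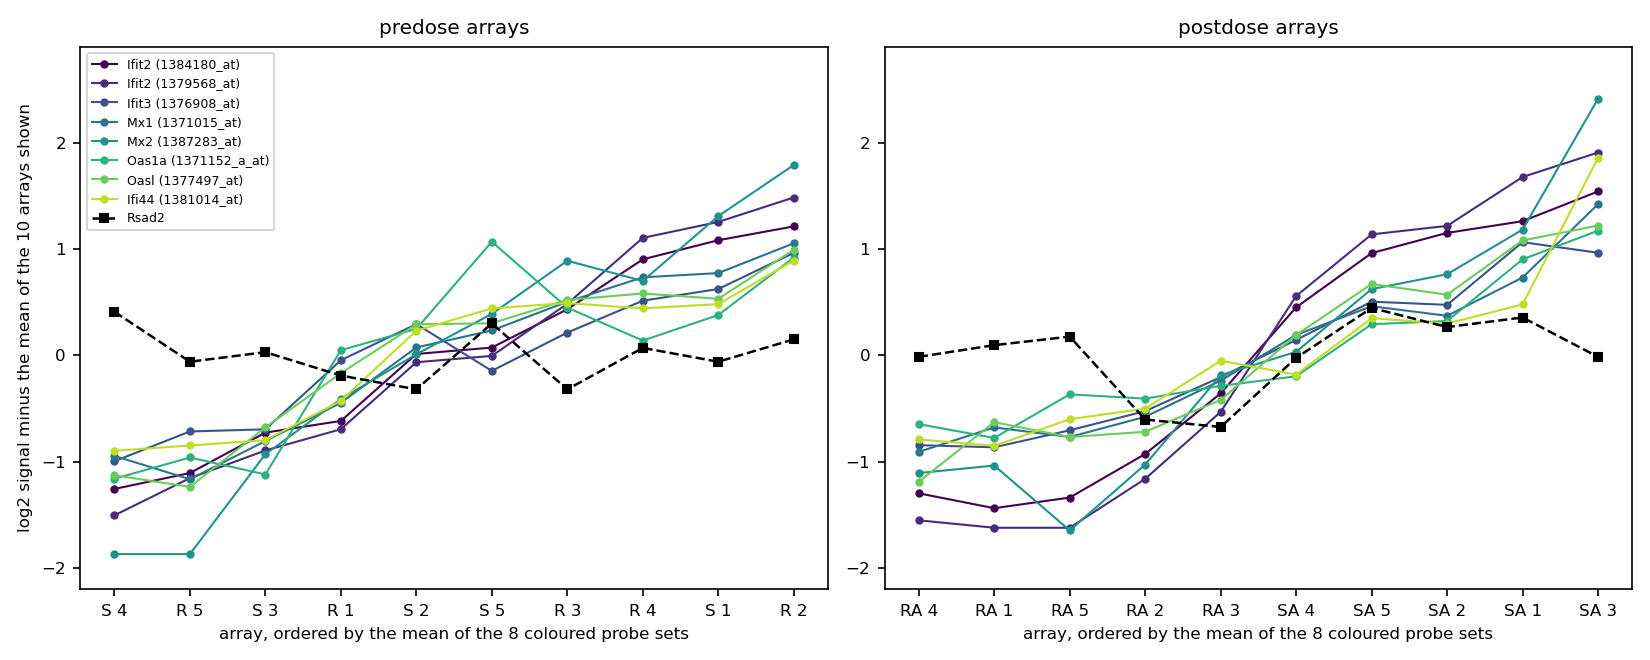
Log2 signal of 8 antiviral effector probe sets (coloured lines) and Rsad2 (black squares) minus their mean over the 10 arrays of each panel (vertical axis), with predose arrays on the left (R resistant, S susceptible) and postdose arrays on the right (RA resistant, SA susceptible), ordered along the horizontal axis by the mean of the 8. The coloured lines climb together while Rsad2 does not follow them, and the sub-groups are mixed before dosing and separate after it.

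After APAP the sub-groups did not overlap in the mean of the 8 probe sets. It was 14.12, 14.37, 14.82, 14.06 and 14.13 on RA arrays 1 to 5 and 16.15, 15.75, 16.67, 15.25 and 15.73 on SA arrays. Every SA array lay above every RA array, and the median SD of the 8 probe sets was 0.30 on RA and 0.50 on SA arrays. Probe sets above the array median had a median SD of 0.21 and 0.22 in those groups, with a 95th percentile of 0.46 and 0.50, which 2 and 4 of the 8 exceeded. In RA rats the levels lay in the lower part of the predose range (13.78 to 16.17), and in SA rats in its upper part or above it.

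In the postdose comparison, SA minus RA, all 10 probe sets were higher in susceptible rats (49.6% of all probe sets tested), with a median difference of 1.27 against 0.00 over all 30747 probe sets, whose 5th and 95th percentiles were -0.91 and 0.86. In 7 of 10 the SA and RA groups did not overlap (1.56% of all probe sets in that direction), namely both Ifit2 probe sets, Ifit3, Mx1, the high Mx2 probe set, Oas1a and Oasl. The adjusted test nevertheless called 0 of 10 with limma (0.124% of all probe sets were called higher, 38 in number), while 9 of 10 had an unadjusted p under 0.05 (5.1% of all in that direction). The criteria of the methods, an unadjusted test per gene and a fold change of at least 2, were stated in the paper for the predose comparison. There they called 0 of 10 (1.22% of all probe sets). Carried over to the postdose comparison, they called 7 of 10 (1.82% of all probe sets), and 0 after adjustment. The count of 0 became 2 without R replicate 2, R replicate 5 or S replicate 1, and 1 without S replicate 4 or SA replicate 4.

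In susceptible rats the change from predose to postdose, SA minus S, was above 0 for all 10 probe sets (51.3% of all), with a median of 0.87 against 0.01 over all probe sets (5th to 95th percentile -0.92 to 1.04). The adjusted test called 3 of 10 higher (3.86% of all probe sets were called higher): Ifit3, 1 of the 2 Ifit2 probe sets and Oas1a. An unadjusted p under 0.05 was reached by 6 (10.2% of all), and the S and SA groups did not overlap for Ifit3 and Oasl, 2 of 10 (3.93% of all). The methods' criteria called 5 (3.29% of all). The adjusted count of 3 became 5 without R 5 or S 1, 4 without R 2 or SA 4, 2 without R 1, R 4, S 5 or RA 3, and 1 without any other of the 20 arrays, Ifit3 being called each time. In resistant rats the change, RA minus R, was below 0 for 8 of 10 (50.9% of all), with a median of -0.78 against -0.01 (5th to 95th percentile -0.91 to 1). None of the 10 passed the adjusted test with limma there (2.6% of all probe sets were called lower and 2.51% higher), 5 had an unadjusted p under 0.05 in the lower direction (8.77% of all), the methods' criteria called 2 (3.1% of all), and there too no groups were free of overlap (3.53% lower and 3.24% higher over all). The 2 changes rest on different arrays, but the postdose comparison shares its arrays with both.

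The difference between these changes, susceptible minus resistant, is the test of whether the sub-groups responded differently. It was above 0 for all 10 probe sets (52.2% of all) with a median of 1.58 against 0.02. With limma 0 of 10 passed the adjusted threshold, as did 0 of all 30747 probe sets (0%), and 8 of 10 had an unadjusted p under 0.05 (4.1% of all in that direction). After adjustment, a difference in response was thus not shown for any of these genes.

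**Figure D2:**
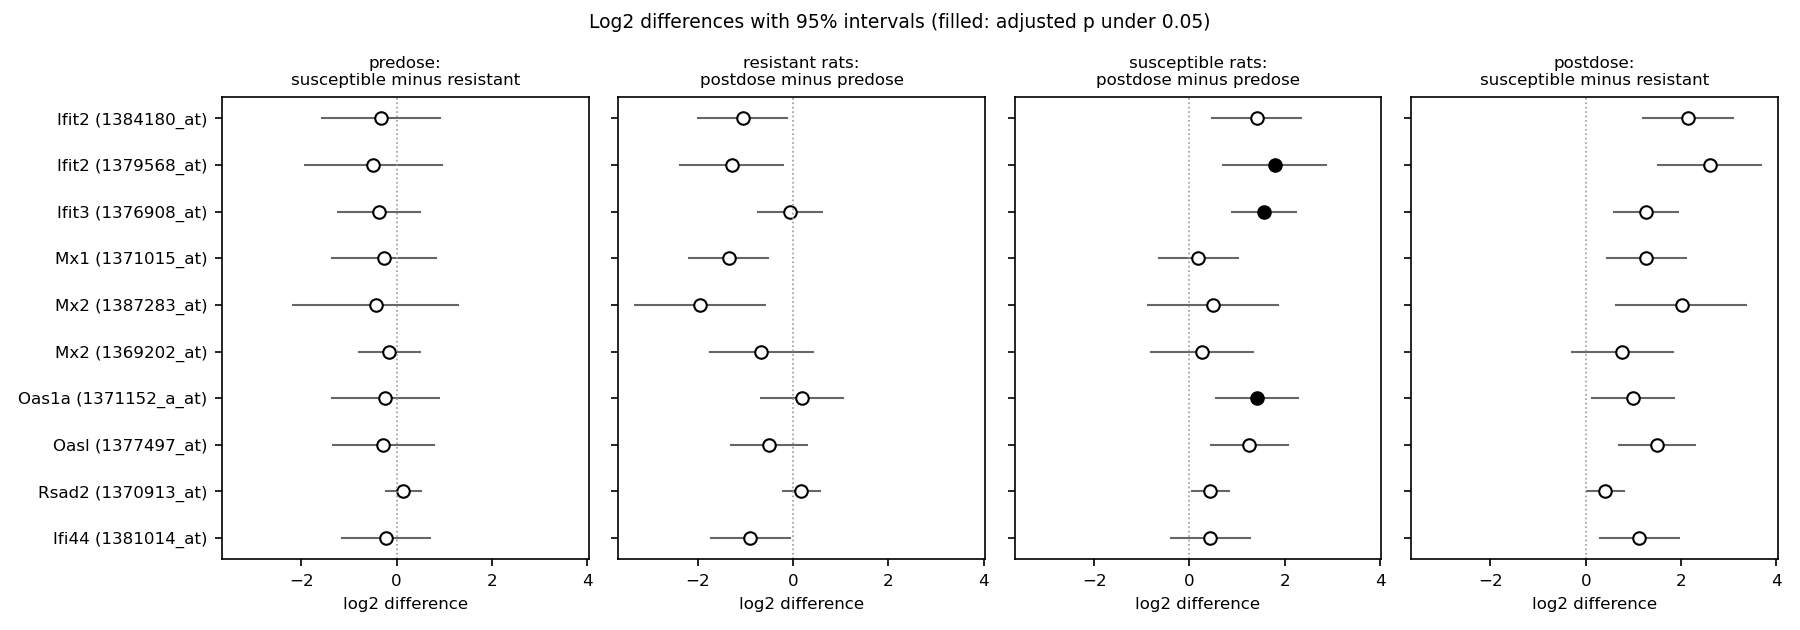
Log2 differences of the 10 probe sets with 95% intervals from limma, for the predose comparison, the change in each sub-group and the postdose comparison. The log2 difference is on the horizontal axis, with filled points for an adjusted p under 0.05 (Ifit3, 1 Ifit2 probe set and Oas1a in susceptible rats). The predose differences lie near 0 and most changes in resistant rats to the left of it. The changes in susceptible rats and the postdose differences lie to the right, up to 2.60 for Ifit2 in the postdose comparison.

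Ifit2 and Ifit3 encode tetratricopeptide repeat proteins that bind to translation factors and RNA, and Ifit3 stabilises the complexes of the family. Ifit2 (1379568_at) had log2 signals of 14.77, 16.95, 15.95, 16.57 and 14.31 on R arrays 1 to 5, 14.09, 14.55, 15.18, 14.16 and 14.09 on RA, 16.72, 15.40, 14.57, 13.96 and 15.46 on S, and 17.39, 16.93, 17.62, 16.27 and 16.85 on SA. The predose values of both sub-groups covered the same range, every RA array lay at or below 15.18 and every SA array at or above 16.27. It was the probe set with the largest postdose difference among the 10, 2.60 (SE 0.52, 95% interval 1.51 to 3.68, 6.05-fold, limma adjusted p = 0.0536), from means of 14.41 ± 0.47 and 17.01 ± 0.52 (SD, n = 5). In susceptible rats it rose by 1.79 (SE 0.52, 3.46-fold, adjusted p = 0.0451), and in resistant rats the change was -1.29 (SE 0.52, adjusted p = 0.185). The difference between the changes was 3.08 (SE 0.73, 95% interval 1.55 to 4.62), with an adjusted p of 0.320. The call in susceptible rats was near the threshold. It was lost without 13 of the 20 arrays, each left out in turn (R 3, S 2 to 5, RA 1, 2, 4 and 5, and SA 1, 2, 3 and 5), with changes of 1.47 to 2.16 and adjusted p of 0.0146 to 0.118 over all 20, and also with quantile normalization (adjusted p = 0.0513) or only the arrays compared (0.0886). The second Ifit2 probe set (1384180_at) followed the same order, with 15.01 ± 0.44 on RA and 17.15 ± 0.41 on SA arrays, a postdose difference of 2.15 (SE 0.45, adjusted p = 0.0666) and in susceptible rats a change of 1.41 with an adjusted p of 0.0701.

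Ifit3 (1376908_at) had the smallest adjusted p of the 10 probe sets in susceptible rats. On R arrays its log2 signal was 16.38, 17.39, 16.64, 16.94 and 15.71, on RA 16.31, 16.65, 16.97, 16.33 and 16.47, on S 17.05, 16.72, 15.73, 15.43 and 16.28, and on SA 18.24, 17.65, 18.14, 17.32 and 17.68. All SA arrays lay above all arrays of the other groups but for R replicate 2, which at 17.39 was above SA replicate 4. The rise was 1.56 (SE 0.32, 2.96-fold, limma adjusted p = 0.00549), and the call was kept with any 1 of the 20 arrays left out (adjusted p 0.00311 to 0.0190). In resistant rats the change was -0.07 (SE 0.32, adjusted p = 0.954), the postdose difference 1.26 (SE 0.32, 2.39-fold, adjusted p = 0.132) and the difference between changes 1.63 (SE 0.45, adjusted p = 0.383).

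Oas1a encodes an oligoadenylate synthetase, which on contact with viral RNA makes the messenger that activates RNase L, and Oasl a related synthetase-like protein. Oas1a (1371152_a_at) read 15.08, 15.95, 15.48, 15.17 and 14.07 on R, 15.05, 15.42, 15.54, 15.18 and 15.46 on RA, 15.41, 15.28, 13.91, 13.87 and 16.10 on S, and 16.73, 16.15, 17.00, 15.63 and 16.12 on SA arrays. The RA arrays lay between 15.05 and 15.54 and below every SA array, while S replicate 5 reached into the SA range. Oas1a rose in susceptible rats by 1.41 (SE 0.41, 2.66-fold, limma adjusted p = 0.0457) and did not pass in the postdose comparison (1, SE 0.41, adjusted p = 0.443). That call was kept without R 2, R 5, S 1, S 5 or SA 4 and lost without any other of the 20 arrays, over changes of 1.15 to 1.71 and adjusted p of 0.0157 to 0.124. It was also lost with values as deposited (adjusted p = 0.0509), with quantile normalization (0.0558) and with only the arrays compared (0.156). Oasl (1377497_at) read 14.50, 15.66, 15.19, 15.25 and 13.43 on R, 14.41, 14.32, 14.62, 13.85 and 14.27 on RA, 15.20, 14.96, 13.99, 13.54 and 14.97 on S, and 16.12, 15.61, 16.26, 15.23 and 15.71 on SA arrays. Each SA array was above each S array and each RA array. Its change in susceptible rats, 1.26 (SE 0.38, adjusted p = 0.0568), missed the threshold, and so did the postdose difference of 1.49 (SE 0.38, 2.81-fold, adjusted p = 0.141).

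Mx1 and Mx2 encode the large GTPases that act on the ribonucleoprotein of influenza and other RNA viruses. For Mx1 (1371015_at), the arrays read 14.98, 16.48, 15.93, 16.16 and 14.26 (R), 14.17, 14.27, 14.61, 13.94 and 14.08 (RA), 16.20, 15.50, 14.62, 14.48 and 15.66 (S), and 15.58, 15.22, 16.27, 15.04 and 15.31 (SA). The SA arrays stayed within the predose range of susceptible rats but for replicate 3, just above it, and the RA arrays lay below all but 1 of the R arrays. The change in resistant rats was -1.35 (SE 0.39, limma adjusted p = 0.0576) and in susceptible rats 0.19 (SE 0.39, adjusted p = 0.854), with a postdose difference of 1.27 (SE 0.39, 2.41-fold, adjusted p = 0.255). Without R replicate 5 or S replicate 1 the change in resistant rats passed the threshold, at -1.67 and -1.35. The high Mx2 probe set (1387283_at) had the widest predose range, with 12.79, 14.99, 14.09, 13.90 and 11.33 on R and 14.51, 13.21, 12.27, 11.33 and 13.59 on S arrays. After dosing it read 11.43, 11.44, 12.28, 11.36 and 10.82 on RA and 13.65, 13.23, 14.88, 12.50 and 13.09 on SA arrays. Its order was that of Mx1, with a change of -1.96 in resistant rats (SE 0.65, adjusted p = 0.0991), of 0.49 in susceptible rats (SE 0.65, adjusted p = 0.757) and a postdose difference of 2.01 (SE 0.65, 4.01-fold, adjusted p = 0.280). Without R replicate 5 its change in resistant rats also passed, at -2.48. The other Mx2 probe set (1369202_at) read 5.70 to 9.26 over the 20 arrays, around the highest value of the negative controls, so that sizes from it are uncertain (postdose difference 0.77, SE 0.51, adjusted p = 0.694).

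Ifi44 encodes an interferon-induced cytoplasmic protein. Its probe set (1381014_at) read 13.49, 14.81, 14.41, 14.36 and 13.07 on R, 12.84, 13.19, 13.64, 12.90 and 13.09 on RA, 14.40, 14.15, 13.12, 13.02 and 14.36 on S, and 14.17, 13.99, 15.55, 13.51 and 14.04 on SA arrays. SA replicate 4 lay just below RA replicate 3, the only overlap between the postdose groups. The change was -0.90 in resistant rats (SE 0.40, limma adjusted p = 0.248) and 0.44 in susceptible rats (SE 0.40, adjusted p = 0.616), and the postdose difference was 1.12 (SE 0.40, 2.17-fold, adjusted p = 0.345).

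**Figure D3:**
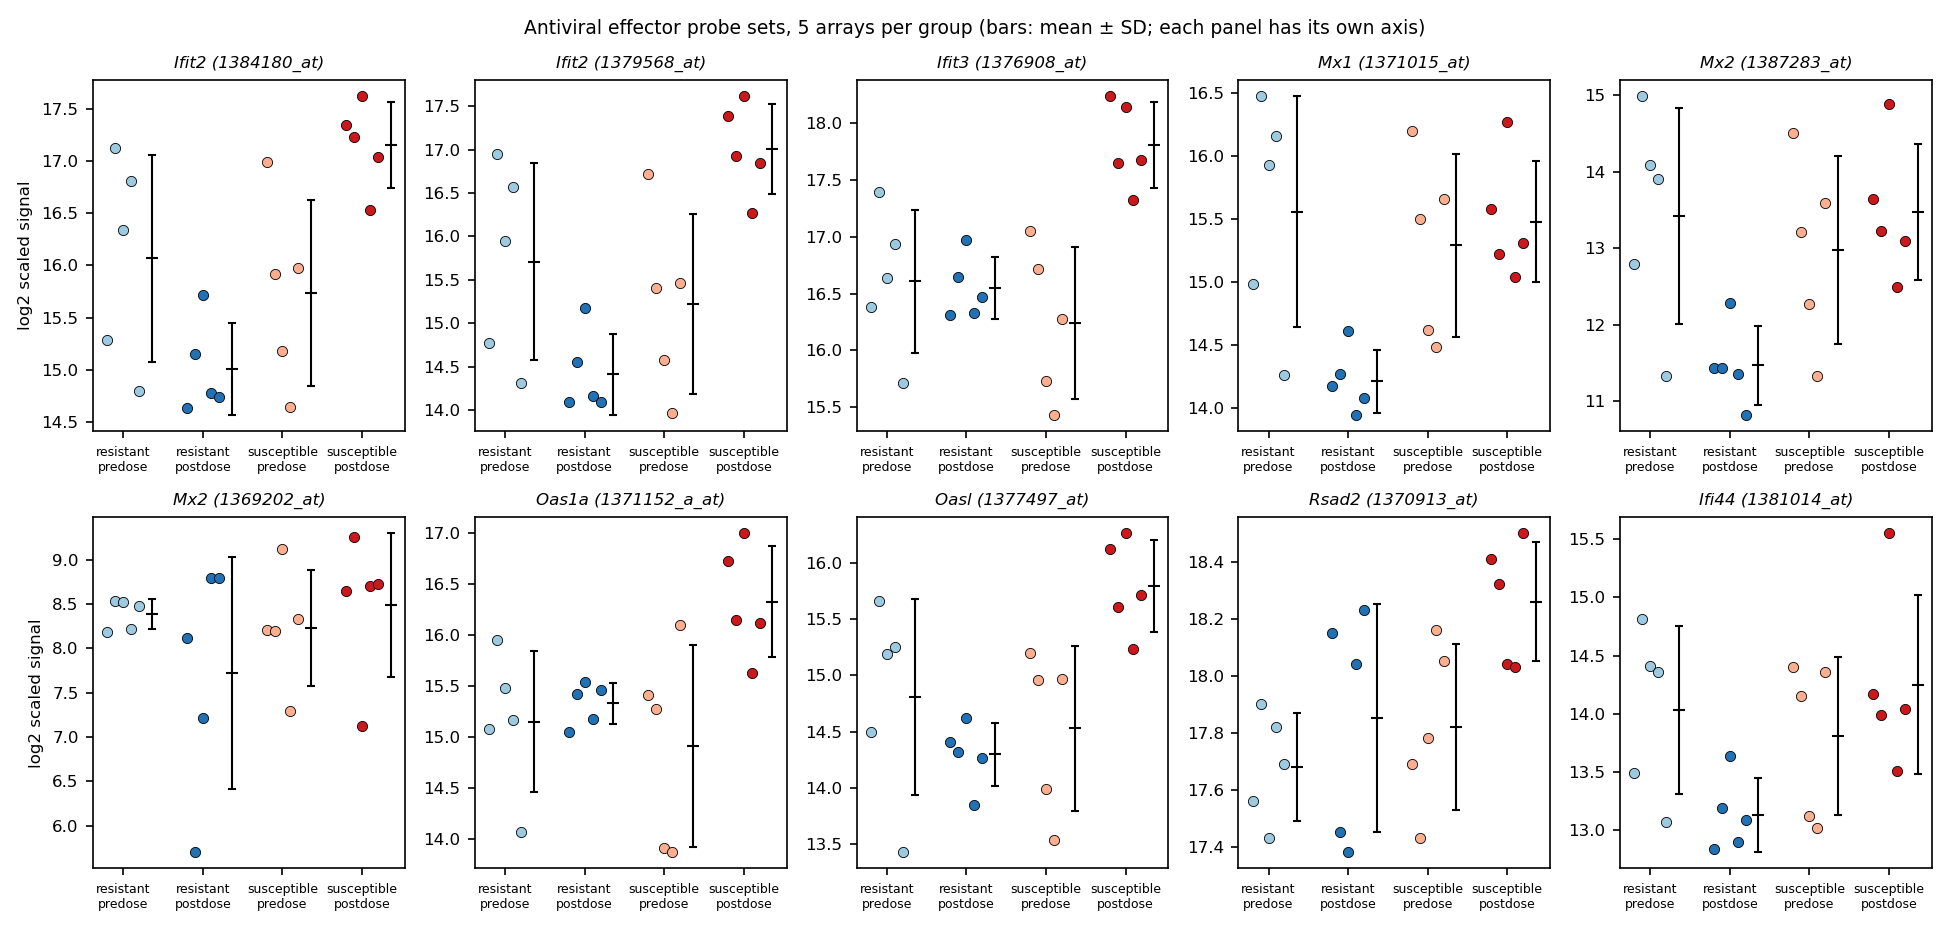
Log2 signal of the antiviral effector probe sets on each array (vertical axis), 1 panel per probe set, with 5 points per group (resistant and susceptible, predose and postdose) and bars for the group mean ± SD. In the panels of Ifit2, Ifit3, Oas1a and Oasl the susceptible postdose points lie above the resistant postdose points, and Rsad2 stays between 17.38 and 18.50 throughout.

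Side by side, the changes of the 8 covarying probe sets had different sizes in the 2 sub-groups. For Ifit3 and Oas1a the resistant rats had changes near 0 (-0.07 and 0.18) and the susceptible rats values of 1.56 and 1.41. For Mx1 and the high Mx2 probe set the larger change was in resistant rats (-1.35 and -1.96 against 0.19 and 0.49). The 2 Ifit2 probe sets had changes of opposite sign, -1.06 and 1.41 in 1 and -1.29 and 1.79 in the other. Whether these genes differ from each other in their changes was not tested.

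Rsad2 (1370913_at) was the exception among the members. It read 17.56, 17.90, 17.43, 17.82 and 17.69 on R, 18.15, 17.45, 17.38, 18.04 and 18.23 on RA, 17.69, 17.43, 17.78, 18.16 and 18.05 on S, and 18.41, 18.32, 18.04, 18.03 and 18.50 on SA arrays. In each comparison the groups overlapped, with means of 17.68 ± 0.19, 17.85 ± 0.40, 17.82 ± 0.29 and 18.26 ± 0.21 (SD, n = 5). The change was 0.44 in susceptible rats (SE 0.18, limma adjusted p = 0.189) and 0.17 in resistant rats (SE 0.18, adjusted p = 0.722), and the postdose difference was 0.41 (SE 0.18, adjusted p = 0.498). Its signal ranked between 39 and 192 of 31042 on every array, and whether it was saturated cannot be told from the deposited values.

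Across the 20 arrays, the 28 pairs among the 8 covarying probe sets had Pearson correlations of 0.54 to 1 with a median of 0.86. The 8 were kept because they varied together on these same arrays, so high correlations among them are partly given by that choice. After the 4 group means were taken out, the correlations of these pairs were 0.78 to 1 with a median of 0.92. Rsad2 correlated with the 8 at -0.05 to 0.33 (median 0.24), and at -0.26 to -0.11 after the group means were taken out. The low Mx2 probe set correlated with them at -0.02 to 0.17. Points of 1 array share its library and scaling, and the 20 arrays are of 10 rats, so these values are descriptions. Cmpk2, the neighbour of Rsad2 and itself an interferon-stimulated gene, correlated with the mean of the 8 at 0.71 and with Rsad2 at 0.35. The genes most like Rsad2 across the arrays, named after their values had been seen, were Adipor1 (0.92), which encodes an adiponectin receptor, Riok3 (0.92), a kinase abundant in maturing red cells, and Glul (0.90), glutamine synthetase. Among erythroid markers, Alas2, the first enzyme of heme synthesis in red cells, correlated with Rsad2 at 0.87, Slc4a1 at 0.70, Klf1 at 0.65, Epb42 at 0.29, Hbb at 0.22 and Ahsp at 0.16. The summed signal of the 6 erythroid markers found, of 8 listed, was 689000 to 741000 before and 462000 to 819000 after dosing in resistant rats, and 604000 to 912000 and 590000 to 824000 in susceptible rats, and its log2 correlated with Rsad2 at 0.71 and with the mean of the 8 covarying probe sets at -0.11. The part of red cell precursors in the Rsad2 signal was not tested.

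The genes most like the members were sought among 20648 other probe sets with 1 symbol, by correlation with the mean of the standardized member values over the 20 arrays. The 10 first were Usp18 (0.98), Rig1 (0.98), Rnf213 (0.97), Pml (0.97), Ifitm3 (0.96), Trafd1, Parp9 and Usp25 (0.95), and RT1-S3 and Parp12 (0.94). Usp18 is the protease that removes Isg15 from proteins and damps the interferon receptor, and Rig1, listed by RefSeq also as Ddx58, encodes the RNA helicase RIG-I. With the 4 group means taken out, Usp18 (0.99) was again first, followed by Zbp1 (0.98), RT1-S3 (0.97), Rig1, Sp110 and Rnf213 (0.96), Dhx58 (0.95), and Dtx3l, Pml and Qpct (0.94). Most of these are known interferon-stimulated genes. Ifitm3, which encodes a membrane protein that blocks virus entry, had a postdose difference of 3.40 (limma adjusted p = 0.0811), larger than that of any member.

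The rest of the pathway was described from 5 gene lists, with 1 probe set per gene. Of the interferon ligands and receptors, 9 of 17 listed genes were found. In susceptible rats 3 of 9 rose and 0 fell (median 0.47), and in resistant rats 3 rose and 0 fell (0.48). With only the arrays compared in the fit, the calls of Ifnar2 (adjusted p = 0.0923) and Ifngr1 (0.0571) in resistant rats and of Ifngr2 (0.131) in susceptible rats were lost. Il10rb, a chain shared by the receptors of interferon lambda and interleukin 10, rose by 0.92 in susceptible (limma adjusted p = 0.000482) and by 0.74 in resistant rats (adjusted p = 0.00308). Ifnar2, a chain of the type I receptor, rose by 0.67 in susceptible rats (adjusted p = 0.00497). After dosing 0 of 9 differed between the sub-groups with limma (median 0.04), and 1 was lower at an unadjusted p under 0.05. Ifnb1, the gene of interferon beta, had a mean log2 signal of 6.43, below the highest negative control.

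Among the 10 of 11 transducers and regulatory factors found, 3 rose in susceptible rats (median 0.29), 1 fell in resistant rats (-0.08) and 2 were higher in SA than in RA rats (0.34). Irf1, a transcription factor that responds to interferon gamma, was 15.28 ± 0.11 on RA and 16.19 ± 0.19 on SA arrays, a difference of 0.91 (limma adjusted p = 0.00967, kept with any 1 of the 20 arrays left out), and rose by 0.71 in susceptible rats (adjusted p = 0.00273). Stat2, a subunit of the complex that reads interferon-stimulated response elements, rose by 1.30 in susceptible rats (adjusted p = 0.00180) and differed by 1.34 after dosing (adjusted p = 0.0196). Irf7, the factor that amplifies type I interferon, fell by 1.14 in resistant rats (adjusted p = 0.0431). That call was lost without any 1 of the R arrays 1 to 4, the 5 RA arrays and SA 2, 3 and 5 (changes of -1.36 to -1.01 over all 20 omissions). Jak1, a kinase of the receptor, had a postdose difference near 0 (-0.06, SE 0.09, adjusted p = 0.908). Of the 6 brakes on signalling, all found, 3 rose in susceptible rats (median 1.36), 0 passed in resistant rats (-0.36, with 2 higher and 2 lower at an unadjusted p under 0.05 in limma) and 1, Usp18, was higher in SA than in RA rats (0.67). With only the arrays compared in the fit, the 3 rises were all lost (adjusted p = 0.101 for Socs1, 0.0646 for Usp18 and 0.0942 for Socs3). Socs1 had a mean of 8.24 and a lowest value of 6.61 on S arrays, around the highest negative control (8.12), so that the size of its rise is uncertain. Usp18 was 13.01 ± 0.28 on RA and 15.62 ± 0.61 on SA arrays (difference 2.61, adjusted p = 0.0266).

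For the sensors of nucleic acid 15 names were listed, some of them older and newer names of the same gene, and 9 genes were found. These had a median difference of 1.01 after dosing with 0 of 9 past the adjusted threshold by limma and 6 at an unadjusted p under 0.05. Myd88, the adaptor of Toll-like receptors, rose in both sub-groups (0.84, limma adjusted p = 0.00121, and 0.64, adjusted p = 0.00974). Of the other interferon-stimulated effectors, 27 of 36 listed were found, and 26 of 27 were higher in SA than in RA rats, with a median of 1.15, 23 at an unadjusted p under 0.05 and 4 past the adjusted threshold. In susceptible rats 7 rose and 0 fell (median 0.52), and in resistant rats 1 rose and 2 fell (median -0.60). Gbp2, a guanylate-binding GTPase that attacks vacuoles of intracellular microbes, had 15.09 on RA and 17.07 on SA arrays (difference 1.99, adjusted p = 0.00967) and rose by 2.03 in susceptible rats (adjusted p = 0.000144), calls kept with any 1 array left out. Cxcl10, a chemokine that draws T and natural killer cells, fell by 2.25 in resistant rats (adjusted p = 0.0488) and was 3.71 higher in SA than in RA rats (adjusted p = 0.0226). Its fall was lost without 14 of the 20 arrays, each left out in turn (R 2 to 4, S 2, 3 and 5, RA 1, 2, 4 and 5, SA 1, 2, 4 and 5), over changes of -2.61 to -1.88, and with values as deposited (adjusted p = 0.0509) or only the arrays compared (0.0903). Irgm, an immunity-related GTPase, differed by 1.60 (adjusted p = 0.0266) and Parp14, an ADP-ribosyltransferase, by 1.09 (adjusted p = 0.0421). Isg15, the ubiquitin-like modifier, which the lists place among the brakes, had a postdose difference of 2.21 (adjusted p = 0.0745), with 15.88 ± 0.29 on RA and 18.10 ± 0.34 on SA arrays.

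Except for Irf1 and Gbp2, the postdose calls of pathway genes depended on single arrays. Those of Stat2 and Cxcl10 were lost without RA 1, 2, 4 or 5 or SA 1 or 3 (differences of 1.23 to 1.44 and of 3.42 to 3.95 over all 20 omissions). Those of Usp18 and Irgm were lost without any RA array or SA 1, 3 or 5 (2.40 to 2.80 and 1.46 to 1.67), and that of Parp14 was kept only without R 2, R 5, S 1, S 3, S 4 or SA 4 (1.02 to 1.17) and lost with values as deposited (adjusted p = 0.0644). In susceptible rats, the rises of Jak2 (adjusted p = 0.13), Eif2ak2 (0.104), Ifitm1 (0.116), Parp9 (0.0983) and Parp14 (0.0622) were lost with only the arrays compared. Ifit1, a further gene of the IFIT family that is not among the 8 and was named after its values had been seen, differed from its relatives: it rose by 0.73 in resistant rats (limma adjusted p = 0.0301), changed by 0.55 in the susceptible (adjusted p = 0.0956) and a postdose difference of -0.14 (adjusted p = 0.892). It was not refitted with arrays left out. Before dosing 0 genes of the 5 lists passed the adjusted test with limma, with medians between -0.27 and 0.01 and 1 brake lower at an unadjusted p under 0.05. In the difference between changes 0 passed as well, while 21 of the 27 other effectors were higher at an unadjusted p under 0.05 (median 1.24). With an intensity-dependent prior in limma, 7 of the named pathway genes passed in that difference: Gbp2 (adjusted p = 0.013), Irf1 (0.0193), Stat2 (0.0221), Irgm (0.0271), Usp18 and Cxcl10 (0.0389) and Parp14 (0.039). Irf1 also passed without R replicate 1 (difference 1.12).

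**Figure D4:**
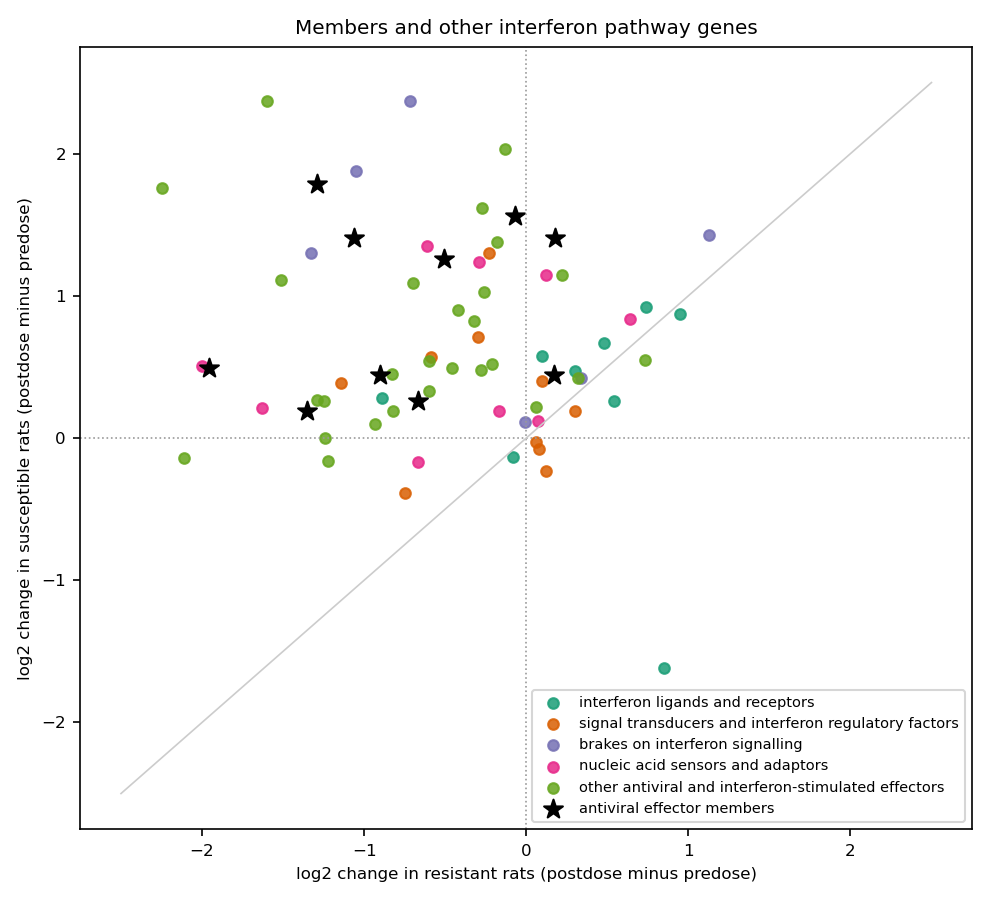
Change from predose to postdose in log2 units in resistant rats (horizontal axis) against that in susceptible rats (vertical axis), 1 point per gene of the interferon pathway lists and per antiviral effector probe set. The changes of the 2 axes come from different arrays, and all 10 antiviral effector probe sets (stars) lie above the line of equal change.

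Markers of blood cells also differed between the groups. The summed signal of natural killer cell markers (9 of 10 found) was 204000 to 331000 (R), 417000 to 603000 (RA), 208000 to 273000 (S) and 357000 to 576000 (SA), and that of neutrophil markers (8 of 11) 523000 to 755000, 844000 to 1040000, 545000 to 703000 and 859000 to 1240000 in the same order. Both sums were higher after dosing in both sub-groups, and the RA and SA ranges overlapped. The neutrophil markers did not all move one way: 4 of 8 rose and 1 fell in susceptible rats (Fcgr3a, by 1.45, limma adjusted p = 0.0174), and 3 rose and 0 fell in resistant rats, where Fcgr3a had a change of -1.09 (adjusted p = 0.0925) and Camp of -0.89 (adjusted p = 0.116). Monocyte markers (9 of 10) summed to 376000 to 542000, 387000 to 565000, 469000 to 510000 and 444000 to 588000 in that order. They too did not all move one way. In susceptible rats Fcgr1a rose (0.98, limma adjusted p = 0.036), while Csf1r (-0.89, adjusted p = 0.0168) and Cx3cr1 (-0.78, 0.0347) fell. In resistant rats 0 of 9 passed the adjusted threshold. Markers of plasmacytoid dendritic cells, the blood cells that make the most type I interferon, were found for 5 of 8 and summed to 45300 to 129000, 42900 to 69300, 61300 to 110000 and 65900 to 98000. That list holds Bst2 and Irf8, themselves induced by interferon. Bst2 had a postdose difference of 1.36 (limma adjusted p = 0.178) and the other 4 of -0.58 to 0.14. Liver markers (9 of 10) summed to 2090 to 3450 (R), 1560 to 3520 (RA), 1800 to 3240 (S) and 2790 to 24200 (SA). In susceptible rats Alb alone of the 9 liver markers passed the adjusted threshold (3.17, limma adjusted p = 0.0161). No defining marker of these lists was at or below the highest negative control on all arrays, for which 1 array above it sufficed. The mean log2 signals of Apoa1 (5.62), Apoa2 (6.88), Fgg (7.26), Fgb (7.44), Cps1 (7.56) and Fga (7.98) lay below that control. So did that of the monocyte marker Ms4a7 (7.32). The part of these cell types in the levels of the antiviral effectors was not tested.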

How the data were processed

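RNA of 20 blood samples was hybridized to 1 Affymetrix array each. The authors deposited 1 linear intensity per probe set and array, with array medians of 187 to 223. Their methods name ArrayTrack and a common chip median of 1000, and the software that made the signals is not given in the sources used here. Control probe sets (57) were removed, the remaining 31042 were brought to that median on every array, and log2 was taken. The predose comparison kept the 30416 probe sets that reached a signal of 100 on at least 1 predose array, and the other comparisons the 30747 that did so on at least 1 of 20. Symbols came from the platform annotation, where 20826 probe sets have 1 symbol, 436 several and 9780 none, and promoters from RefSeq on GRCr8.

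Tests were run in limma 3.58.1 under R 4.3.3, by lmFit followed by eBayes. P-values were adjusted by Benjamini and Hochberg's method over all probe sets tested, with a threshold of 0.05. Only the 10 predose arrays entered the predose comparison. All 20 arrays in 4 groups entered the others and shared 1 spread per probe set. Precision is limited by the number of arrays. The fit was also run on simulated data, with independent normal values for each probe set and array and known shifts added. Those data lack the covariation between genes and the 2 arrays per rat, so the run cannot show how the tests behave under these. Plots used matplotlib 3.10.9 and Python 3.11.15. The 8 genes, the gene lists and the tests were chosen with earlier results of these data known, so that no p was adjusted over the list alone. Genes named from the pathway lists were those past the adjusted threshold in any comparison, at most 8 a list, and the 2 of highest mean signal. The genes most like the members were the 10 of highest correlation. As alternatives, arrays were quantile normalized or left at their deposited level, the filter was dropped or made stricter (5 arrays), 1 probe set per gene was kept, the prior was made intensity-dependent, only the arrays compared were fitted, the replicate number was a block, the methods' criteria replaced the test, and each array was left out in turn. Markers of T cells, B cells and platelets were also examined: 0 of 11, 0 of 5 and 0 of 6 differed between the postdose groups with limma (medians -0.15, -0.24 and 0.21), and 2, 2 and 0 were lower at an unadjusted p under 0.05. From predose to postdose, 1 T cell marker fell in susceptible rats (Cd4, -0.67, limma adjusted p = 0.047). So did 2 B cell markers, Cd22 (-0.44, adjusted p = 0.00964) and Blnk (-0.68, 0.0163), and 0 platelet markers. In resistant rats 0 markers of these lists passed.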

Additional observations from a re-analysis of the deposited data

Results flagged for a closer look

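The low Mx2 probe set (1369202_at) had a log2 signal of 7.12 on SA replicate 3, where the other 4 SA arrays read 8.65 to 9.26. The ratio of its gap to the nearest of these over the range of the group was 0.717, just above Dixon's critical value of 0.71 for 5 values. It was the only such case among 40 groups of 5 arrays examined, and chance gives about 1 in 20. SA replicate 3 had the highest SA mean of the 8 covarying probe sets, 16.67, and 7.12 is below the highest negative control, 8.12.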

How the results depend on the processing

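In resistant rats, 0 member probe sets passed the adjusted threshold. The count was 1 with quantile normalization or with 1 probe set per gene, 2 with an intensity-dependent prior or by the methods' criteria, and 0 to 2 with arrays left out in turn. The count of 3 in susceptible rats was 1 with quantile normalization or only the arrays compared, 5 with the intensity-dependent prior or by the methods' criteria, 0 by those criteria with adjustment, and 1 to 5 with arrays left out. After dosing, the count of 0 was 1 with 1 probe set per gene, 2 with only the arrays compared, 4 with the prior, 7 by the methods' criteria, and 0 to 2 with arrays left out. The causes of these shifts were not tested. Counts for the predose comparison and the difference in change were 0 under all alternatives run. No member difference that had been called changed its direction under any alternative run. With arrays left out in turn, the median over the 10 probe sets was -0.59 to -0.03 before dosing, -1 to -0.66 in resistant and 0.77 to 1.15 in susceptible rats, 1.37 to 1.86 for the difference in change and 1.14 to 1.38 after dosing. With the replicate number as a block, 2 members passed in susceptible rats (Ifit3, adjusted p = 0.0142, and Ifit2 1379568_at, 0.0435) and Oas1a did not (0.0855). For the postdose comparison the block joined equal numbers of all 4 groups, and so different rats, for which the design gives no reason. It ended the postdose calls of Irf1 (adjusted p = 0.0602), Stat2 and Cxcl10 (0.0627), Usp18 (0.0835), and Irgm and Parp14 (0.0934). In the changes of both sub-groups, where the block joined equal numbers within a sub-group, further pathway calls were lost. Whether equal predose and postdose numbers are the same rat is not known. Same-numbered arrays correlated at -0.03 to 0.05 in their deviations, and 4 of 10 correlated best with their own number. These values do not decide it, since the deviations also hold variation between arrays that is not of the rat. Signals near the negative controls, such as those of the low Mx2 probe set, limit what can be said of them.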
